A study of Mus musculus with 18 samples.

Results

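The genes described here encode the subunits of the proteasome and the proteins that assemble, activate or inhibit it. They were chosen by name, as every gene on the array whose symbol is Psm followed by a letter from a to g and a number, with Psmb8 and Psmb9 left out. This gave 41 of the 15780 named genes, each measured by 1 probe set. The rule fits 47 protein-coding genes of the mouse annotation table, and 6 of them, Psma3, Psma4, Psma5, Psmb3, Psmb5 and Psme2b, were not analysed here. Gene expression had been measured on 18 arrays of male mice. The sorted cells came from males of 2 months and were pre-mid-pachytene spermatocytes in 3 samples of C57BL/10J-Ttf+/+T43H (called Ttf/T43H here), 3 of C57BL/10J-t12+/+T43 (called t12/T43) and 2 of fertile C57BL/10J, with 2 samples of mid-late-pachytene spermatocytes of C57BL/10J. Whole testes without their outer coat came from males of 15 days, with 3 samples of each carrier line and 2 of C57BL/6J. The design text calls the replicates biological. Both carrier lines hold T43H, a reciprocal translocation between chromosomes 16 and 17, and differ in the chromosome 17 variant opposite it, Ttf or t12. The testis controls are of another C57BL substrain than the background of the carriers, so strain and carrier genotype cannot be told apart in the testes.

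The proteasome is the large protease that degrades proteins tagged with ubiquitin. Its 20S core is a barrel of alpha and beta rings, with the cutting sites on some beta subunits. The 19S cap, an ATPase ring with non-ATPase subunits, recognises, unfolds and feeds the substrate, and other caps (PA28 and PA200) open the barrel without needing ubiquitin. Spermatocytes and spermatids make their own versions: Psma8 is an alpha subunit of male germ cells that takes the place of its paralog Psma7, and PA200, encoded by Psme4, is abundant in testis and acts on histones. Psmb10 and Psmb11 are catalytic subunits of the immunoproteasome and of the thymus.

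Promoter sequences are shown for the 3 activator genes whose values moved furthest between pre-mid and mid-late pachytene, Psme1 and Psme2 downwards and Psme4 upwards. They are from RefSeq on GRCm38.p6, in the direction of transcription, and cover the 250 bases before the start of the gene. Capitals mark a match to the MYB element AACNGNC, which only the Psme4 sequence holds, and lower case is all other sequence.
Psme1, chr14:55578244-55578493, plus strand: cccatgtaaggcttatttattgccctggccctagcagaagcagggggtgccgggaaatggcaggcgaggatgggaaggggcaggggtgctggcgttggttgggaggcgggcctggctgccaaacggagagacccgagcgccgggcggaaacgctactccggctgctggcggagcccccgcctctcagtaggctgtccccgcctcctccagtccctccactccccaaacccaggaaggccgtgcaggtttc
Psme2, chr14:55591102-55591351, minus strand: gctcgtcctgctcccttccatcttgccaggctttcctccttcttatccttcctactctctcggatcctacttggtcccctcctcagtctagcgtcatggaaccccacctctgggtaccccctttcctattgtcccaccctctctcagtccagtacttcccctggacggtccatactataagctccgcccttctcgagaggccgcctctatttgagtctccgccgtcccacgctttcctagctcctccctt
Psme4, chr11:30771525-30771774, plus strand: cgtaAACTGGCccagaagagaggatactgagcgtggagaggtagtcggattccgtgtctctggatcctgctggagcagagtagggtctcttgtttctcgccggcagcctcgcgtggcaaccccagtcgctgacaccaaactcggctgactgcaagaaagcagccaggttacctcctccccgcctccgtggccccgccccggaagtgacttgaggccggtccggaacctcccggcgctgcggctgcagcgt
Shorter pieces at the start of 2 of these genes hold the other matches, again in capitals, to the interferon-stimulated response element on the opposite strand in Psme1 and to the antioxidant response element on the opposite strand in Psme4.
Psme1, chr14:55578493-55578522: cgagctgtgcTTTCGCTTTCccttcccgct
Psme4, chr11:30771758-30771787: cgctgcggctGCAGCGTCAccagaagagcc

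Promoter windows of equal length, from 250 bases before the start to shortly after it, were available for 33 of the 41 genes, in 36 windows, and 5 motifs were searched on both strands. The interferon-stimulated response element, GAAA and GAAA with a pair of any bases between them, was found in 4 of the 36 windows (Psmd4, Psmd9, Psme1 and Psmg4) and in 3.44% of all 32851 windows. The antioxidant response element TGACNNNGC was found in 5 (Psmb6, Psmc6, Psmd12, Psmd9 and Psme4) and in 12.4% of all windows. The MYB element AACNGNC was found in 15 windows of 14 genes and in 32.8% of all windows, and the CCAAT box, CCAAT, in 11 windows and in 37.4%. The cyclic AMP response element TGACGTCA was found in none of the 36 and in 1.79% of all windows. Matching letters are a description of these windows and were not tested as binding sites.

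The values are log2 expression values on the authors' scale, and values below about 4 carry little signal over background. In limma, 40 of the 41 genes were bright enough to be tested in each tissue. Psmb11, the thymus subunit, lay between 2.07 and 2.49 on every array and was not tested. Among sorted cells the pooled SD between replicate arrays had a median of 0.38 over the 40 genes and 0.42 over all genes tested, and in testes 0.05 and 0.09. Psme2 (1.62), Psme1 (1.03) and Psma7 (0.97) had the largest replicate SD of the 40 in sorted cells, and Psma8 (0.19) had the largest in testes. Most values of sorted cells were therefore far less precise than those of testes.

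The labelled cells were checked against marker genes fixed with the design. The mean of 5 spermatocyte markers lay between 12.98 and 13.96 on pre-mid arrays and at 10.88 and 10.78 on mid-late arrays. The mean of 8 markers of mid-late pachytene was 13.20 and 13.34 on mid-late arrays and between 9.75 and 11.59 on pre-mid arrays. Markers of other cells moved with the groups: the mean of 10 spermatid markers was 12.38 and 11.69 in C57BL/10J pre-mid cells, 9.87 to 10.42 in Ttf/T43H and 5.14, 7.67 and 5.18 in t12/T43. In mid-late C57BL/10J cells it was 9.59 and 8.96. Between the C57BL/10J stages, 5 of these 10 markers were called lower in mid-late cells, with a median change of -2.86, so they moved with that comparison too. The mean of 8 Sertoli markers lay between 5.62 and 7.22 on pre-mid arrays and was 3.71 and 3.87 on mid-late arrays, and that of 6 spermatogonia markers lay between 5.79 and 8.58 and was 2.95 and 2.78. The mean of 5 Leydig markers was 5.8 and 4.0 in C57BL/10J pre-mid cells, 3.20 and 3.75 in mid-late cells and between 6.93 and 10.61 in carriers. Of the sorted arrays, 2 stood apart in earlier results of these data: replicate 2 of Ttf/T43H, which had the highest spermatogonia mean (8.58, against 6.48 and 6.06 in its group), and replicate 3 of t12/T43, which had the highest Leydig mean. The difference between 3' and 5' probe signal of Gapdh averaged 3.53 in Ttf/T43H, 3.74 in t12/T43, 2.90 in C57BL/10J pre-mid and 2.95 in mid-late cells, so it was higher in carriers. That of actin averaged 3.57, 3.53, 2.50 and 3.44 in the same order, so by actin the mid-late arrays (3.51 and 3.38) also lay above the C57BL/10J pre-mid arrays (2.49 and 2.51), and this measure moved with the comparison of stages. The part of these markers and of RNA quality in the results below was not tested. In bulk RNA, fewer cells of a type and less RNA per cell cannot be told apart.

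**Figure D1:**
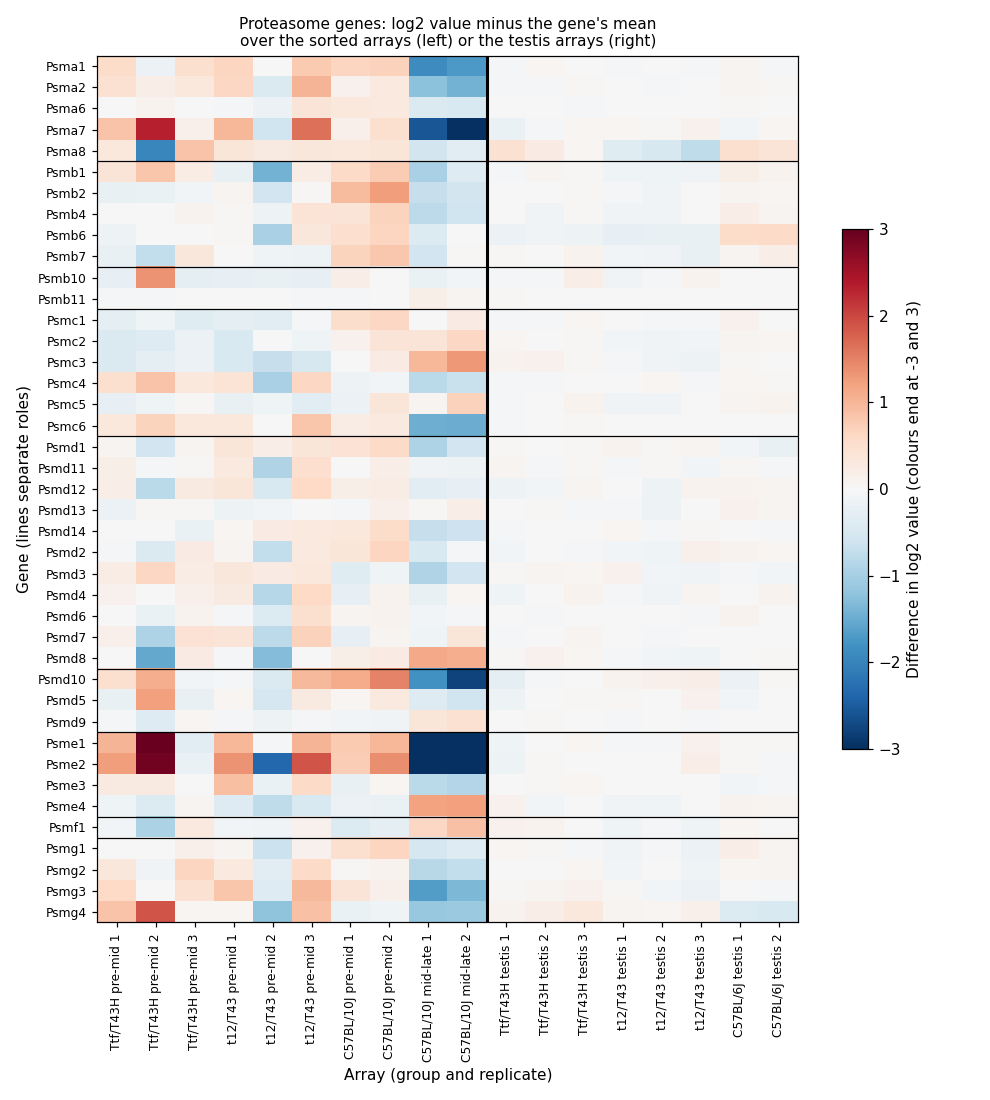
Log2 value of each of the 41 genes (lines, in order of role) on each of the 18 arrays (columns), minus the gene's mean over the 10 sorted arrays on the left or the 8 testis arrays on the right; red is higher, blue is lower, and colours end at -3 and 3. Both mid-late C57BL/10J columns hold the deepest blue, at Psme1, Psme2, Psma7 and Psmd10, and the testis columns are pale, apart from Psmb6, Psma8 and Psmg4.

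From pre-mid to mid-late pachytene in C57BL/10J, many proteasome genes were lower, among them most of the 20S core and both genes of the PA28 alpha and beta cap, while PA200, the ATPase Psmc3 and the inhibitor Psmf1 were higher. Limma called 19 of the 40 genes (47.5%), where 56.5% of all 9666 genes were called. Of these, 3 rose (26.2% of all genes rose) and 16 fell (30.3% of all genes fell). The median change was -0.76 over the 40 genes and -0.11 over all genes, and 31 of the 40 had a value below 0 (52.7% of all genes did). With quantile normalization or with each array centred on its median, the median of all genes moved to 0.11 and 0.18, and the counts of proteasome genes were 4 higher and 19 lower, and 4 higher and 13 lower. The share of the 40 that rose was 7.5% and the share that fell was 40.0%, which describes these counts and is no test of the family. Both mid-late arrays lay above both pre-mid arrays in 42% of all genes and below them in 46.4% (5 and 30 of the 40). Groups that do not overlap are thus the rule in this comparison.

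In the alpha ring, 4 of the 5 measured genes fell. Psma7, the alpha subunit used in most tissues, was at 8.95 and 9.26 in pre-mid and at 6.23 and 5.35 in mid-late C57BL/10J cells. Both mid-late arrays lay below every pre-mid array of any genotype, of which the lowest was 8.18. Psma7 fell by 3.32 ± 0.83 (SE, 9.96-fold, adjusted p = 0.0082, n = 2 and 2). Psma8, its germ cell paralog, was at 14.20 and 14.25 in pre-mid and at 13.34 and 13.57 in mid-late cells. The change of Psma8 was -0.77 ± 0.75 (adjusted p = 0.418) and was not called. Its groups did not overlap, as in most genes of this comparison. All 10 sorted arrays share one estimate of spread, and Ttf/T43H replicate 2 lay at 11.93. Without both arrays that stand apart, Psma8 had the same change with an SE of 0.22 and was called lower (adjusted p = 0.0203). Neither of these arrays is of C57BL/10J, so leaving them out changed only the shared spread. They were picked from earlier results of these data, so the call without them is a description.

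Psma1 was at 13.17 and 13.20 in pre-mid and at 10.62 and 10.80 in mid-late C57BL/10J cells, with no overlap, and fell by 2.47 ± 0.34 (adjusted p = 3.2e-04). Psma2 and Psma6, also alpha subunits, fell by 1.53 ± 0.42 and 0.75 ± 0.24. All 4 of these are structural subunits of the outer rings.

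In the standard beta ring 4 of 5 genes fell. Psmb2, a structural beta subunit, was at 10.66 and 10.98 in pre-mid and at 9.04 and 9.17 in mid-late cells. The groups did not overlap, as in most genes of this comparison, and Psmb2 fell by 1.71 ± 0.28 (adjusted p = 7.2e-04). Psmb1 and Psmb4, which are structural as well, fell by 1.36 ± 0.50 and 1.22 ± 0.25. Of the catalytic subunits, Psmb7, which carries the trypsin-like site, fell by 1.0 ± 0.36 (adjusted p = 0.0414). Psmb6, with the caspase-like site, was at 13.35 and 13.50 and then at 12.44 and 12.84, a change of -0.79 ± 0.40 that was not called (adjusted p = 0.129). Psmb10, the inducible counterpart of Psmb7, lay near background in all sorted groups, between 3.79 and 4.25 on every array but Ttf/T43H replicate 2 (5.41), and its change of -0.23 ± 0.49 was not called.

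The median change was -0.10 over the ATPases and -0.24 over the non-ATPase subunits of the 19S cap, where it was -1.53 over the alpha and -1.22 over the standard beta subunits of the core; the differences between these medians were not tested. Among the 6 ATPases, Psmc6 was at 13.54 and 13.61 in pre-mid and at 11.85 on both arrays in mid-late cells, and fell by 1.73 ± 0.30 (adjusted p = 0.0011). Psmc3 moved the other way, from 12.85 and 13.09 to 13.82 and 14.13, and rose by 1.01 ± 0.23 (adjusted p = 0.0053). Both mid-late arrays of Psmc3 lay above all 8 pre-mid arrays. The other 4 ATPases had changes between -0.62 and 0.29, and none was called.

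Of 11 non-ATPase subunits, 2 fell and none rose. Psmd1, the largest scaffold of the cap base, was at 13.27 and 13.40 and then at 11.89 and 12.26, and fell by 1.26 ± 0.28 (adjusted p = 0.0045). Psmd14, the deubiquitinase that removes ubiquitin chains as substrates enter, was at 13.42 and 13.65 and then at 12.42 and 12.48, and fell by 1.09 ± 0.22 (adjusted p = 0.0025). Neither gene's groups overlapped. The other 9 had changes between -0.76 (Psmd2) and 0.90 (Psmd8), and were not called.

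**Figure D2:**
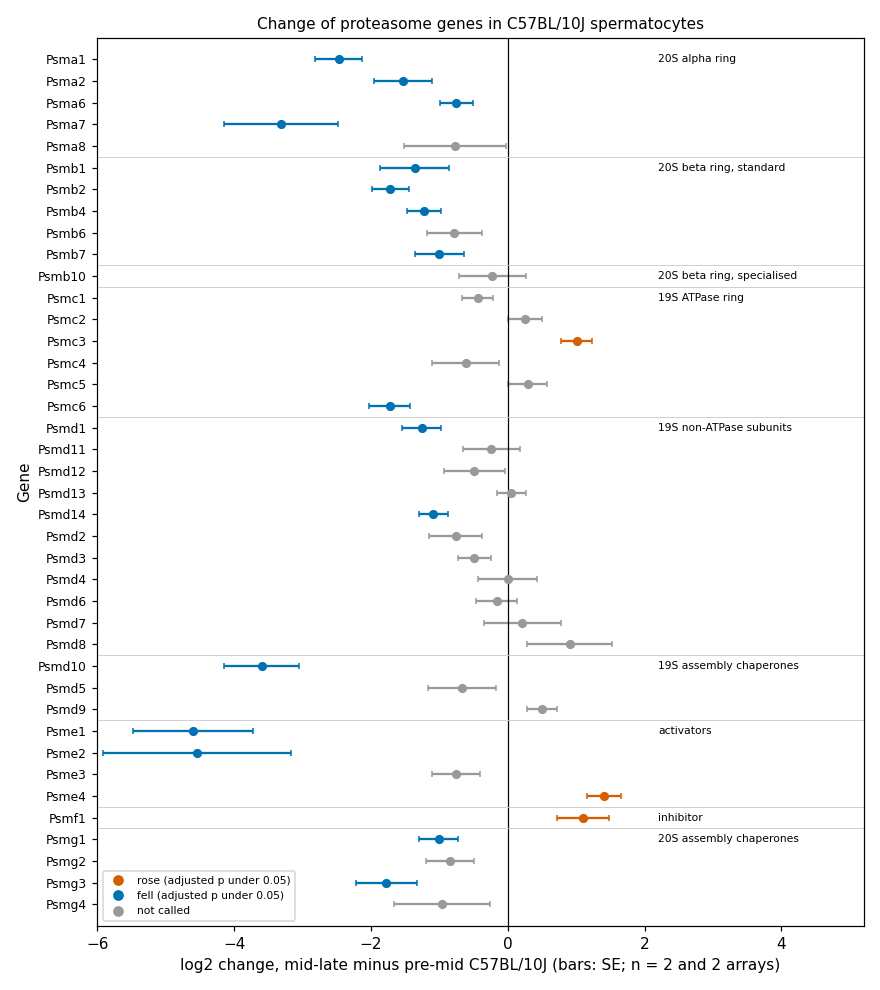
Log2 change of the 40 tested genes, mid-late minus pre-mid C57BL/10J spermatocytes (n = 2 and 2 arrays), in order of role, with bars of 1 SE; blue fell and orange rose at an adjusted p under 0.05, and grey was not called. The 4 lowest points are Psme1, Psme2, Psmd10 and Psma7, and the orange points are Psmc3, Psme4 and Psmf1.

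The activators divided by kind. Psme1, the alpha subunit of the PA28 cap, was at 8.09 and 8.31 in pre-mid and at 3.58 and 3.62 in mid-late C57BL/10J cells. Psme2, its beta partner, was at 5.8 and 6.46 and then at 1.57 and 1.59. For both genes, whose promoters are shown above, the mid-late arrays were near or below background and lay under every pre-mid array. Psme1 fell by 4.60 ± 0.88 (adjusted p = 0.0019), and Psme2 fell by 4.54 ± 1.37 (adjusted p = 0.0195). These are differences of background-level log2 values, so the size of either fall depends on how the background was set. Psme3, the nuclear PA28 gamma, was at 8.95 and 9.21 and then at 8.35 and 8.30, a change of -0.76 ± 0.35 that was not called (adjusted p = 0.0938).

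Psme4 (PA200) was at 11.41 on both pre-mid C57BL/10J arrays and at 12.80 and 12.83 in mid-late cells. All pre-mid arrays of the carriers lay between 10.83 and 11.68, below both mid-late arrays. Psme4 rose by 1.41 ± 0.24 (2.65-fold, adjusted p = 0.0011). Psmf1, the inhibitor PI31, was at 7.97 and 8.11 and then at 9.01 and 9.27, and rose by 1.10 ± 0.38 (adjusted p = 0.0342). It was the only other gene outside the ATPase ring to rise.

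Assembly chaperones of both particles were among those that fell. Psmd10 (gankyrin), a chaperone of the 19S base and the only member on the X chromosome, was at 8.75 and 9.14 in pre-mid and at 5.83 and 4.86 in mid-late C57BL/10J cells. The mid-late arrays lay below all 8 pre-mid arrays, and Psmd10 fell by 3.60 ± 0.55 (adjusted p = 5.5e-04). The median change of the 301 tested genes of the X was -3.60, and 73.1% of them fell. The other base chaperones, Psmd5 and Psmd9, had changes of -0.67 ± 0.50 and 0.50 ± 0.23 and were not called. Psmg3 and Psmg1, chaperones of the alpha ring, fell by 1.77 ± 0.45 and 1.01 ± 0.29, while Psmg2 and Psmg4, their partners, had changes of -0.85 ± 0.35 and -0.96 ± 0.70 and were not called.

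**Figure D3:**
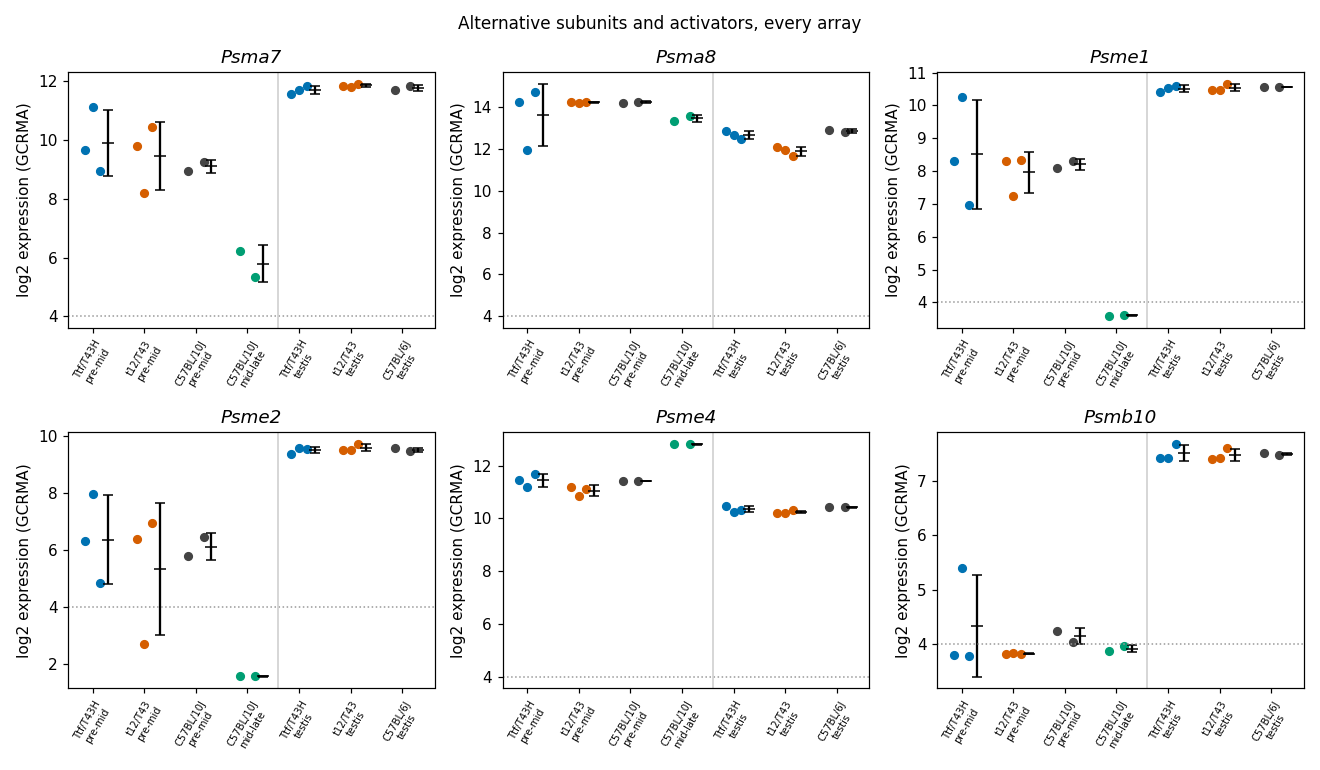
Log2 expression of Psma7, Psma8, Psme1, Psme2, Psme4 and Psmb10 on every array, by group, with the group mean and SD as a cross line and bar; the dotted line is the level of 4 used to filter dim genes, and the grey line divides sorted cells from testes. Psme1 and Psme2 lie below 4 on both mid-late arrays, Psme4 is highest there, and Psma8 is lowest in t12/T43 among the testes.

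How far these calls rest on single arrays was checked by leaving out each of the 10 sorted arrays in turn; where this left 1 array in a group, it was taken to vary like the others. Psma1, Psmb2, Psmb4, Psmc6, Psmd1, Psmd10, Psmd14, Psme1 and Psme4 kept their call in all 10 fits and under the 9 other settings. The count of called genes was 11 without mid-late replicate 2, 12 without mid-late replicate 1 and 12 without either pre-mid C57BL/10J array. Psma7 and Psmc3 lost the call without mid-late replicate 2 (adjusted p = 0.0587 and 0.0621), Psma2 without replicate 2 of either C57BL/10J group (up to 0.0736), and Psmg3 without replicate 1 of either (up to 0.0596). Psma6, Psme2 and Psmg1 lost it without any 1 of the 4 C57BL/10J arrays (up to 0.125, 0.0921 and 0.0902). Psmf1 lost it without any of these or t12/T43 replicate 1 (up to 0.16). Psmb7 lost it without both pre-mid C57BL/10J arrays in turn, mid-late replicate 1, Ttf/T43H replicate 1, or t12/T43 replicates 1 and 3 (up to 0.255). Psmb1 lost it without any of the C57BL/10J arrays, Ttf/T43H replicates 1 and 3, or t12/T43 replicate 1 (up to 0.219). Psma6, Psmb1 and Psmb7 also lost the call when each array was centred on its median, Psmb1 and Psmb7 with a replicate block, and Psmb1 with no filter.

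The mid-late C57BL/10J cells were also set against pre-mid cells of each carrier line, comparisons that share the 2 mid-late arrays and whose groups differ in genotype as well as stage. Against Ttf/T43H, 21 of 40 genes were called (60.3% of all genes were), 6 higher and 15 lower (28.6% and 31.7% of all genes). Against t12/T43, 18 of 40 were called (64.4% of all genes were), 4 higher and 14 lower (30.2% and 34.2% of all genes). Psme4 was higher by 1.37 ± 0.22 and 1.76 ± 0.22 in these comparisons, against 1.41 ± 0.24 within C57BL/10J. Psma7 fell by 4.11 ± 0.76 and 3.67 ± 0.76, against 3.32 ± 0.83. Psmb2, by contrast, had changes of -0.45 ± 0.25 (adjusted p = 0.156) and -0.47 ± 0.25 (adjusted p = 0.136), against -1.71 ± 0.28 within C57BL/10J. The count was 12 and 11 without mid-late replicate 1 and 2 against Ttf/T43H, and 13 without either against t12/T43.

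Psmc2, an ATPase, rose by 0.84 ± 0.23 against Ttf/T43H and by 0.70 ± 0.23 against t12/T43, where its change within C57BL/10J was 0.24 ± 0.25. Psmd8, a lid subunit, rose by 1.54 ± 0.56 and 1.58 ± 0.56 in the same comparisons, and its change within C57BL/10J was 0.90 ± 0.62, not called. Psmd3, a lid scaffold, fell by 1.09 ± 0.22 and 1.03 ± 0.22, against a change of -0.49 ± 0.24 within C57BL/10J. Psme3 fell by 1.02 ± 0.32 and 1.27 ± 0.32, against -0.76 ± 0.35. None of these differences between comparisons was tested beyond the tests of carriers against C57BL/10J given next. In those tests, Psmc2, Psmd8, Psmd3 and Psme3 were not called in either carrier line. In the comparisons of mid-late cells, Psmd3 kept its call against both carrier lines whichever array was left out. Psmd8 lost its call without any 1 of the 4 C57BL/10J arrays. In the comparison with Ttf/T43H it was also lost when Ttf/T43H replicate 2 or replicate 1 of t12/T43 was left out (adjusted p up to 0.142), and in that with t12/T43 when replicate 2 of t12/T43 was left out (up to 0.126). Psmc2 lost its call against Ttf/T43H without mid-late replicate 2 (0.104) and against t12/T43 without either mid-late array or t12/T43 replicate 1 (up to 0.171). Psme3 lost its call against Ttf/T43H without either mid-late array or Ttf/T43H replicate 1 (up to 0.104), and with each array centred on its median (0.0569). Psmd8 also lost its call with no filter in both comparisons, and against Ttf/T43H once the pair of sorted arrays that stand apart was removed.

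Among pre-mid-pachytene cells, few proteasome genes differed between carriers and C57BL/10J. In Ttf/T43H, limma called 1 of 40 genes, lower (2.06% of all genes were called, 0.59% higher and 1.47% lower), and 7 had an unadjusted p under 0.05 (17.9% of all genes did). In t12/T43 it called 2 of 40, both lower (9.07% of all genes, 3.24% higher and 5.83% lower), and 7 had an unadjusted p under 0.05 (22.1% of all genes did). At 7 of 40, neither count exceeds the share of all genes. The median over the 40 genes was -0.11 in Ttf/T43H (0.01 over all genes) and -0.21 in t12/T43 (0.06 over all genes). Both comparisons use the same 2 control arrays. All Ttf/T43H arrays lay above both controls in 20.4% of all genes and below them in 20.9% (4 and 14 of the 40). For t12/T43 these shares were 26% and 20.9% (2 and 15 of the 40).

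Psmb2 was at 9.5, 9.52 and 9.65 in Ttf/T43H and at 9.81, 9.15 and 9.75 in t12/T43, against 10.66 and 10.98 in C57BL/10J. Every carrier array lay below both controls. It fell by 1.27 ± 0.25 in Ttf/T43H (2.4-fold, adjusted p = 0.0456) and by 1.25 ± 0.25 in t12/T43 (2.38-fold, adjusted p = 0.0174). The fall of Psmb2 between C57BL/10J stages is taken from the same 2 pre-mid arrays, so it and the falls in carriers are not independent. The call in Ttf/T43H was lost in the 8 fits that left out any array but replicate 2 of either carrier line (changes between -1.42 and -1.11, adjusted p up to 0.343) and the call in t12/T43 without either C57BL/10J pre-mid array (up to 0.171). Without both arrays that stand apart the changes were -1.25 ± 0.26 (adjusted p = 0.0467) and -1.34 ± 0.26 (adjusted p = 0.0267). With a replicate block both calls were lost (adjusted p = 0.162 and 0.0614), and the labels do not pair these arrays; the call in Ttf/T43H was also lost with a filter at 6.

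Psmc1, an ATPase of the cap, was at 12.89, 13.04 and 12.80 in Ttf/T43H and at 12.88, 12.85 and 13.11 in t12/T43, against 13.69 and 13.79 in C57BL/10J, with no overlap between carriers and controls. It fell by 0.79 ± 0.20 in t12/T43 (adjusted p = 0.0445), and its change of -0.83 ± 0.20 in Ttf/T43H was not called (adjusted p = 0.075). Without both arrays that stand apart it was called in both, at -0.90 ± 0.17 (adjusted p = 0.0411) and -0.87 ± 0.17 (adjusted p = 0.0285). As these arrays were picked from earlier results of these data, the calls of Psmb2 and Psmc1 without them are a description. The call in t12/T43 was lost in 9 of 10 fits that left out 1 array, all but that without Ttf/T43H replicate 2, with changes between -0.87 and -0.74 (adjusted p up to 0.287), and with a replicate block (0.129) or a filter at 6. As given above, spermatid markers were lower and the 3' to 5' difference higher in carriers than in these controls, and their part in the falls of Psmb2 and Psmc1 was not tested.

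**Figure D4:**
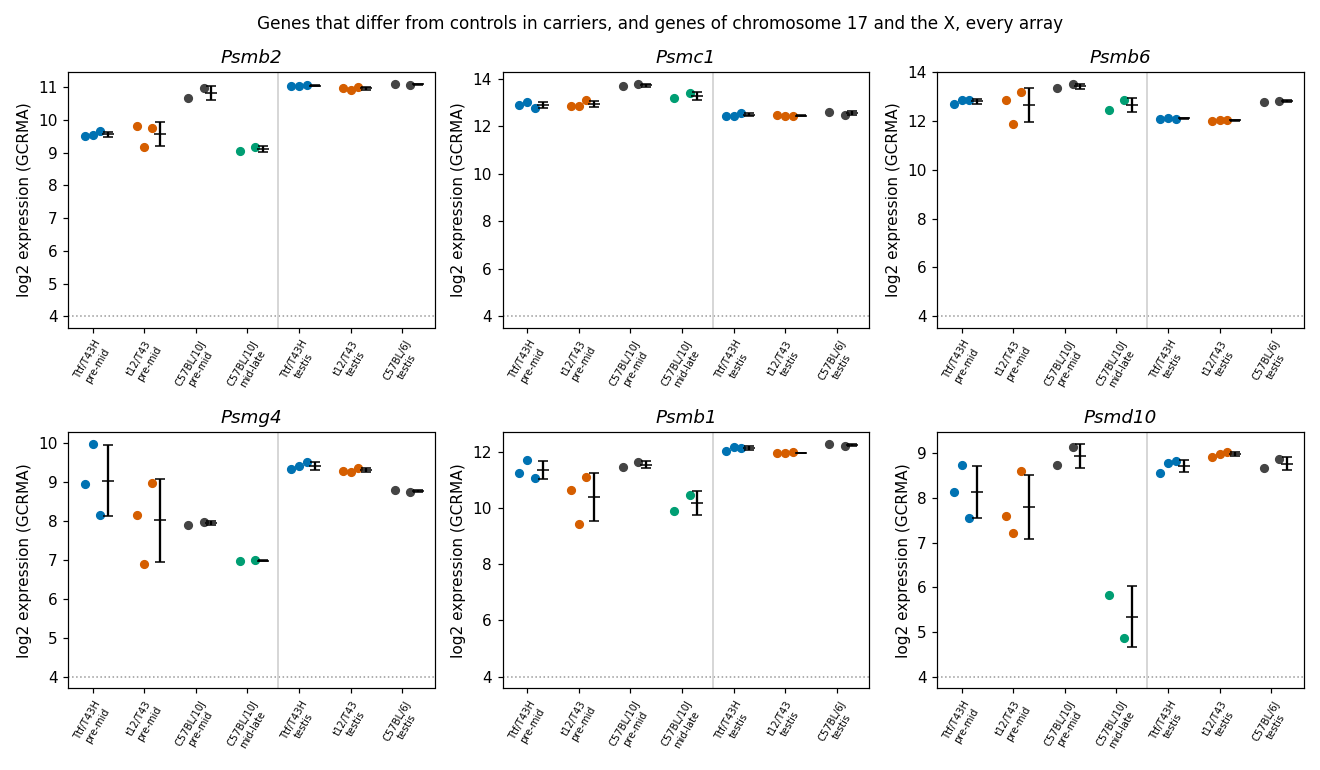
Log2 expression of Psmb2, Psmc1, Psmb6, Psmg4, Psmb1 (chromosome 17) and Psmd10 (X chromosome) on every array, by group, with the group mean and SD as a cross line and bar; the dotted line is the level of 4 used to filter dim genes, and the grey line divides sorted cells from testes. Carrier arrays lie below C57BL/10J pre-mid arrays for Psmb2 and Psmc1, and in testes below C57BL/6J for Psmb6 and above it for Psmg4.

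Psmb7 was at 11.51, 10.99 and 12.08 in Ttf/T43H and at 11.74, 11.60 and 11.59 in t12/T43, against 12.41 and 12.54 in C57BL/10J. All carrier arrays of Psmb7 lay below both controls, as in 20.9% of all genes in either line, and it was not called in either. The median change over the 5 standard beta genes was -0.63 in Ttf/T43H and -0.83 in t12/T43. Among the activators and the alpha subunits, no difference could be called. Psma8 was at 14.22, 11.93 and 14.74 in Ttf/T43H and at 14.25, 14.17 and 14.24 in t12/T43, against 14.20 and 14.25 in C57BL/10J. All carrier arrays but the second of Ttf/T43H lay near or above the controls. Its change was -0.60 ± 0.68 in Ttf/T43H and -0.01 ± 0.68 in t12/T43, and turned to 0.25 ± 0.22 in Ttf/T43H without the arrays that stand apart. Psma7 was at 9.64, 11.11 and 8.94 in Ttf/T43H and at 9.78, 8.18 and 10.43 in t12/T43, a spread that covered the controls. Replicate 2 of Ttf/T43H, the array with the low Psma8 and the highest spermatogonia markers, had the highest Psma7, Psmb10 (5.41) and Psme1 (10.27, against 8.32 and 6.97) of its group. Psme2 ran from 4.85 to 7.96 in Ttf/T43H and from 2.70 to 6.94 in t12/T43. Psme4 had changes of 0.04 ± 0.22 and -0.35 ± 0.22, neither called.

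Between the carrier lines, t12/T43 and Ttf/T43H pre-mid cells, limma called 0 of 40 genes, where 0.755% of all genes were called (0.0621% higher and 0.693% lower). Only Psmb1 had an unadjusted p under 0.05, where 10.2% of all genes did. This beta subunit gene lies on chromosome 17, which differs between the lines, and was at 11.25, 11.70 and 11.08 in Ttf/T43H and at 10.64, 9.45 and 11.10 in t12/T43. The ranges overlapped, and the change was -0.95 ± 0.41 (adjusted p = 0.482). Over the 470 tested genes of chromosome 17 the median change was -0.05, and 0.638% were called lower. The median over the 40 genes was -0.04 and over all genes 0.05. One array weighed on the t12/T43 group: replicate 2 was the lowest of its group for 34 of 40 genes, where it was lowest for 48.4% of all genes, with a median difference from the other 2 of -0.71 (-0.16 over all genes). Replicate 3 was the highest for 30 of 40, where it was highest for 46.4% of all genes.

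In testes of 15-day-old males the replicates lay close together and 3 genes stood out. Against C57BL/6J, limma called 2 of 40 genes in Ttf/T43H, 1 higher and 1 lower (8.56% of all genes were called, 3.86% higher and 4.7% lower). In t12/T43 it called 8 of 40, 2 higher and 6 lower (21.8% of all genes, 10.5% higher and 11.3% lower), 20.0% of the 40, near the share of all genes. The median over the 40 genes was -0.05 in Ttf/T43H and -0.09 in t12/T43 (0.0035 and 0.02 over all genes). All Ttf/T43H testes lay above both controls in 22.7% of all genes and below them in 21.6% (7 and 11 of the 40). For t12/T43 these shares were 30.3% and 26.6% (4 and 20 of the 40). Both comparisons use the same 2 control testes, in which, without C57BL/6J replicate 1 or 2, the t12/T43 count was 2 or 3.

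Psmb6, the caspase-like subunit, was at 12.09, 12.14 and 12.10 in Ttf/T43H and at 12.01, 12.03 and 12.03 in t12/T43, against 12.79 and 12.83 in C57BL/6J. All 6 carrier testes lay below both controls. It fell by 0.71 ± 0.04 in Ttf/T43H (1.63-fold, adjusted p = 1.8e-04) and by 0.79 ± 0.04 in t12/T43 (1.73-fold, adjusted p = 9.8e-05). In sorted cells, against C57BL/10J controls, its changes were -0.63 ± 0.37 and -0.78 ± 0.37, and neither was called.

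Psmg4, a chaperone of the alpha ring, went the other way, with 9.32, 9.40 and 9.52 in Ttf/T43H and 9.28, 9.26 and 9.36 in t12/T43, against 8.79 and 8.74 in C57BL/6J. Again no carrier testis overlapped the controls. It rose by 0.65 ± 0.07 in Ttf/T43H (adjusted p = 0.0026) and by 0.53 ± 0.07 in t12/T43 (adjusted p = 0.003). In sorted cells its changes against C57BL/10J were 1.09 ± 0.64 and 0.07 ± 0.64, with arrays from 6.89 to 9.98 in carriers, and were not called. Psmb6 and Psmg4 kept their calls in each of the 8 fits that left out 1 testis and in every other setting except the fit of all 18 arrays together, where the wider spread of sorted cells is shared.

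Psma8 was at 12.87, 12.66 and 12.48 in Ttf/T43H, at 12.07, 11.96 and 11.66 in t12/T43, and at 12.91 and 12.80 in C57BL/6J. All t12/T43 testes lay below all others, and the Ttf/T43H testes overlapped the controls. Psma8 fell by 0.96 ± 0.15 in t12/T43 against C57BL/6J (1.95-fold, adjusted p = 0.0056), where its change in Ttf/T43H was -0.19 ± 0.15 (adjusted p = 0.479). The call was lost without C57BL/6J replicate 1 (adjusted p = 0.0518). Psma7, its paralog, had changes of 0.09 ± 0.09 in t12/T43 and -0.06 ± 0.09 in Ttf/T43H testes and was not called. Markers moved with Psma8: of 5 tested genes of mid-late pachytene, 4 fell in t12/T43 against C57BL/6J, with a median of -1.16, and the mean of the list lay at 8.47 and 8.08 in C57BL/6J, 7.60 to 8.03 in Ttf/T43H and 7.02 to 7.40 in t12/T43. The spermatocyte marker mean was 12.13 and 12.03 in C57BL/6J, 12.31 to 12.56 in Ttf/T43H and 12.08 to 12.36 in t12/T43. In t12/T43 this mean was thus not lower than in C57BL/6J, but its group mean of 12.255 was below the 12.45 of Ttf/T43H. The part of the cell makeup in the fall of Psma8 was not tested.

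Direct comparison of the carrier testes called Psma8 as well, the only one of 40 genes (4.99% of all genes were called, 1.07% higher and 3.92% lower; 9 of the 40 had an unadjusted p under 0.05, as did 25.9% of all genes). It fell by 0.78 ± 0.13 in t12/T43 relative to Ttf/T43H (1.71-fold, adjusted p = 0.0365, n = 3 and 3). The call was lost in 6 of 8 fits that left out 1 testis (Ttf/T43H replicates 1 and 2, replicates 2 and 3 of t12/T43, and both of C57BL/6J), with changes between -0.87 and -0.66 (adjusted p up to 0.136), and with no filter on dim genes. Of all genes called in this comparison 21.5% were higher, and 33.5% with each array centred on its median. With a replicate block 5 of the 40 were called, 1 higher and 4 lower. All t12/T43 testes lay above all Ttf/T43H testes in 14.8% of all genes and below them in 16.1% (1 and 11 of the 40). Psma8 in sorted cells had a change of 0.59 ± 0.61 between the same lines, which turned to -0.27 ± 0.22 without the arrays that stand apart. The test of whether the difference between lines differed between sorted cells and testes gave 1.37 ± 0.69 for Psma8 (adjusted p = 0.712), and limma called 0 of 40 genes in it (0.734% of all genes, 0.0659% higher and 0.668% lower), with 0 at an unadjusted p under 0.05.

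The other genes called in t12/T43 testes had smaller changes. Psmb7 fell by 0.29 ± 0.07 (adjusted p = 0.0236), from 10.62 and 10.73 in C57BL/6J to 10.44, 10.42 and 10.30. Psmb1, on chromosome 17, was at 11.96, 11.95 and 11.97, against 12.27 and 12.20 in C57BL/6J, and fell by 0.28 ± 0.05 (adjusted p = 0.0142); 29.1% of the 453 tested genes of chromosome 17 fell in this comparison. Psmg1, on chromosome 16, fell by 0.25 ± 0.07 (adjusted p = 0.0422) and Psmc2 by 0.16 ± 0.04 (adjusted p = 0.0363), and both lost their calls with quantile normalization and with centring. Psmd1 rose by 0.22 ± 0.06 (adjusted p = 0.0304). Psmb7 and Psmb1 lost their calls without either C57BL/6J testis (up to 0.14 and 0.105) and Psmb7 without t12/T43 replicate 2, and Psmc2, Psmd1 and Psmg1 without either C57BL/6J testis, any t12/T43 testis or Ttf/T43H replicate 2 (up to 0.174, 0.175 and 0.246), and Psmg1 without Ttf/T43H replicate 1. Among all genes called, 48.1% were higher, and 58.1% with centring.

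The members on the chromosomes of the translocation and on the X, Psmd2, Psmg1, Psmb1 and Psmd10, had values below 0 in sorted cells of both carrier lines against C57BL/10J, and none was called there. Of all 40 members, 24 in Ttf/T43H and 27 in t12/T43 were below 0. The medians over all tested genes in Ttf/T43H and t12/T43 were -0.09 and -0.02 on chromosome 16. They were -0.16 and -0.32 on chromosome 17, and -0.03 and 0.11 on the X. Psmd2, a base scaffold on chromosome 16, had changes of -0.58 ± 0.35 and -0.63 ± 0.35 in sorted Ttf/T43H and t12/T43 cells and -0.13 ± 0.09 and -0.10 ± 0.09 in testes, none called. Psmg1, the other member on chromosome 16, had -0.51 ± 0.26 and -0.72 ± 0.26 in sorted cells, not called. Psmb1 had -0.20 ± 0.46 and -1.15 ± 0.46 there, not called either. Psmd10 was at 8.13, 8.73 and 7.55 in sorted Ttf/T43H and at 7.59, 7.22 and 8.61 in t12/T43, against 8.75 and 9.14 in C57BL/10J, with every carrier array below both controls. Its changes of -0.81 ± 0.50 and -1.14 ± 0.50 were not called (adjusted p = 0.456 and 0.229). In testes Psmd10 had values of 8.57 to 9.04 in all 3 groups and no call.

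The activators lay in narrow ranges across testes. Psme1 lay between 10.40 and 10.67 and Psme2 between 9.38 and 9.74 on the 8 testis arrays, with changes between lines of at most 0.09 in size. Psme4 lay between 10.21 and 10.46 and Psme3 between 7.95 and 8.09, and Psmb10 between 7.40 and 7.69. None of these 5 was called in any testis comparison.

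Other genes of the ubiquitin and proteasome pathway were taken from a list of 44, of which 31 were on the array. From pre-mid to mid-late pachytene in C57BL/10J, 27 were tested, and 4 rose and 10 fell (26.2% and 30.3% of all genes), with a median of -0.42. Uba6, an enzyme that activates ubiquitin, was at 10.36 and 9.98 and then at 3.22 and 3.32, and fell by 6.90 ± 0.35 (adjusted p = 1.4e-06). Nfe2l2 (NRF2), a transcription factor that induces proteasome genes under oxidative stress, was at 8.77 and 8.69 and then at 2.46 and 2.56, and fell by 6.22 ± 0.37 (adjusted p = 2.9e-06). Both genes were at background level on the mid-late arrays. Nfe2l1 (NRF1), which restores proteasome genes when the protease is inhibited, fell by 0.83 ± 0.21 (adjusted p = 0.0091). Tapbp, a chaperone of antigen presentation, rose by 1.73 ± 0.23 (adjusted p = 2.6e-04), and Ubxn7, an adaptor of the Vcp segregase, fell by 2.43 ± 0.35 (adjusted p = 3.9e-04).

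In sorted carriers against C57BL/10J, limma called 1 of these 27 genes in t12/T43 and 0 in Ttf/T43H (9.07% and 2.06% of all genes were called). In Ttf/T43H, 4 of the 27 had an unadjusted p under 0.05, where 17.9% of all genes did. The gene called was the shuttle factor Ddi1, at 2.00, 5.38 and 2.00 in t12/T43 against 8.73 and 8.18 in C57BL/10J. It fell by 5.33 ± 0.91 (adjusted p = 0.009), a size taken against background-level values on all t12/T43 arrays but the second. In testes, 8 of 29 rose and 2 fell in t12/T43 against C57BL/6J (10.5% and 11.3% of all genes), and 1 rose and 1 fell in Ttf/T43H (3.86% and 4.7%). In t12/T43, 3 of these rises (Psmb9, Tap1 and Tap2) and 1 of the falls were of the immunoproteasome and peptide transport list. Between the carrier testes 3 of 29 rose (1.07% of all genes), all of the immunoproteasome and peptide transport list on chromosome 17. Psmb9, the immunoproteasome subunit left out of the 41, was at 7.29, 7.47 and 7.85 in t12/T43, at 3.82, 3.77 and 4.58 in Ttf/T43H and at 3.81 and 3.78 in C57BL/6J. It rose by 3.48 ± 0.23 relative to Ttf/T43H (adjusted p = 0.0018), with Tap1 by 2.32 ± 0.15 and Tap2 by 1.89 ± 0.08. Tap1 and Tap2 reached 4 only in t12/T43 testes (4.58 to 4.93 and 4.30 to 4.63), and Psmb9 did so in only 1 other testis. The filter on dim genes was thus passed through the group where these genes were high, and the sizes are differences from values at or near background. For the same reason, the counts of rises in t12/T43 testes that hold these genes are a description and no test of the list. Psmb10, the immunosubunit among the 41, lay at 7.40, 7.43 and 7.61 in the same t12/T43 testes and at 7.43, 7.43 and 7.69 in Ttf/T43H, a change of -0.04 ± 0.09 that was not called. Psme1 and Psme2, which work with the immunoproteasome, had changes of 0.03 ± 0.07 and 0.09 ± 0.08 between these lines and were not called.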

How the data were processed

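Expression was measured in 18 mouse samples on 1-colour arrays after 2-cycle labelling. The deposited log2 values came from GCRMA, per the submitters' processing notes, which corrects background, normalizes and summarises probes; its version, the genome build and which arrays were normalized together are not given in the sources used here. Arrays give no read depth, and their number limits the precision. The table holds 16539 probe sets, 1 per gene; 759 without a gene symbol were left out. Groups and replicate numbers came from the sample titles, and the design text calls the replicates biological.

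Values were used as deposited. Genes with a log2 value of at least 4 on at least 2 arrays of a fit were tested with limma 3.58.1 in R 4.3.3 (lmFit, eBayes): 9666 genes over 10 sorted arrays, 9134 over 8 testis arrays, and 10623 over all 18 for the test of the difference between tissues. All tests had 2 sides. A gene was called at an adjusted p under 0.05, with the Benjamini-Hochberg adjustment made over every gene tested in that comparison. Errors of changes are limma's SE. The scripts were tested on simulated data. All fits were repeated with no filter, a filter at 6, quantile normalization, centring on array medians, a variance trend, array quality weights, a replicate block, all 18 arrays in 1 fit, without both sorted arrays that stand apart, and without each array. Genes named for a comparison are up to 8 rises and 8 falls among called members, with the specialised, catalytic and activator subunits and members of chromosomes 16, 17 and X always named, and up to 4 related genes; a few more were named after their values were seen. Members, lists and rules were chosen with earlier results of these data known. Promoter windows came from a RefSeq table and matched 33 members by symbol.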

Additional observations from a re-analysis of the deposited data

How the results depend on the processing

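No proteasome gene called in a comparison changed direction under any setting tried. With array quality weights, whose estimation stopped before reaching its tolerance, counts of called members grew: from 0 to 4 between the sorted carriers, from 1 to 21 in sorted Ttf/T43H and from 2 to 14 in sorted t12/T43 against C57BL/10J, from 19 to 32 between C57BL/10J stages, from 18 to 30 between mid-late cells and t12/T43, from 1 to 6 between carrier testes, from 2 to 4 and from 8 to 13 in Ttf/T43H and t12/T43 testes against C57BL/6J, and from 0 to 10 for the difference between tissues. With all 18 arrays in 1 fit they were 9 and 8 in sorted Ttf/T43H and t12/T43 and 0 in each of the 3 testis comparisons, where the fit shares the spread of the sorted arrays. In sorted Ttf/T43H the count was 2 with no filter, 0 with a filter at 6, and 2 once the pair of sorted arrays that stand apart was removed; in sorted t12/T43 it was 1 with a filter at 6. Between carrier testes it was 0 with no filter and 4 with a variance trend.

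The labels do not say that equal replicate numbers share an animal or a day, and same-numbered carrier arrays did not all deviate together (correlations 0.25, 0.02 and -0.35 in sorted cells, 0.49, 0.04 and 0.68 in testes). With a replicate block the counts were 0 and 0 in sorted Ttf/T43H and t12/T43 and 5 between carrier testes, and within 1.5 times the reported count in the other comparisons.

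Leaving out 1 array at a time gave 0 to 2 calls in sorted Ttf/T43H and 0 to 2 in t12/T43, 11 to 22 between C57BL/10J stages, 11 to 23 and 13 to 22 for mid-late cells against Ttf/T43H and t12/T43, 0 to 2 between carrier testes, 2 in each fit for Ttf/T43H testes and 2 to 8 for t12/T43 testes, and 0 in each fit between sorted carriers and for the difference between tissues. Groups of 2 or 3 arrays limit every count, and levels under about 4 limit Psmb10, Psmb11, Psme1 and Psme2 in sorted cells.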
